A study of Homo sapiens with 6 samples.

Results

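The G2/M, spindle and cytokinesis genes described here are 45 genes whose products drive entry into mitosis, hold and move chromosomes, and divide the cell. Members were chosen by name, with earlier results of these data known. Every probe set that the platform annotation assigns to 1 gene, and to a gene of this list, was taken. That gave 126 of the 49293 probe sets tested, covering 44 of the 45 genes, out of 18132 genes tested in all. PTTG1 (securin, the inhibitor that holds separase back until anaphase) was represented by 1 probe set that the annotation also assigns to PTTG3P, so it was not counted as a member.

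RNA came from SH-SY5Y, an established human neuroblastoma line with sympathetic neuron-like features that divides in culture. Endosulfan cells (3 arrays) were given 3 µM endosulfan, an organochlorine insecticide and blocker of GABA-gated chloride channels, for 24 h, and control cells (3 arrays) are labelled as control with no vehicle named in the sources used here. The culture medium, MEM with F12 and serum, was common to both groups. The labels call the 3 samples of a group biological replicates without naming separate cultures or days, so the spread between them may be in part technical. The values are log2 RMA values of single-channel arrays, in which background was corrected, arrays were brought to shared quantiles and probes were summarised per probe set. A difference of 1 is a 2-fold difference.

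Mitosis is run by CDK1 bound to cyclin A and cyclin B, whose genes are transcribed late in the cycle under the MuvB complex together with B-MYB and FOXM1. The kinetochore ties each chromosome to the spindle, and the spindle checkpoint holds anaphase back until all are tied. The anaphase-promoting complex then destroys cyclin B and securin, and motors, microtubule bundlers and a contractile ring split the cell. Because these transcripts peak as cells approach division, their level in a bulk culture moves with the share of dividing cells. Fewer cells in mitosis and less RNA per mitotic cell cannot be told apart in bulk samples.

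Most mitotic genes were at lower values on endosulfan arrays than on control arrays, but no member passed the test and the groups mostly overlapped. At gene level, with the probe set of highest mean standing for each gene, 37 members had a log2 fold change below 0 and 7 above, whereas 39.8% of all genes tested were below 0. The median log2 fold change was -0.48 over the 44 members and 0.05 over all genes. It was -0.20 over members without endosulfan 1 and control 1, and -0.16 with the level of the poly-A spike-ins, bacterial transcripts added to each RNA, as a covariate. The differences were not shared evenly: spindle motors and microtubule-associated proteins had medians of -0.82 and -0.83, while the chromosomal passenger complex was at 0.05 and the 2 measured genes of the anaphase-promoting complex group, CDC20 and UBE2C, at 0.01.

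With limma and Benjamini-Hochberg adjustment over all 18132 genes, 0 of the 44 members were past an adjusted p of 0.05, where 0.00552% of all genes were. The members' adjusted p ran from 0.196 to 0.986. With arrays weighted by their agreement, in a limma estimate that stopped short of its convergence tolerance, 31 members and 46 of their probe sets passed, where 32.6% of all genes and 14.4% of all probe sets passed. At an unadjusted p below 0.05, 16 members (36.4%) were lower and 0 were higher, against 10.5% of all genes lower and 6.64% higher. The 3 endosulfan values lay below all 3 control values in 12 members (27.3%), where 10.2% of all genes did so. They lay above in 2 members, CENPA and INCENP, where 12.4% of all genes did so. The 16 lower members became 6 without endosulfan 3, 9 without control 1, 10 without control 3, 10 without endosulfan 1 and 28 without endosulfan 2. With the level of the poly-A spike-ins as a covariate there were 0, where 1.63% of all genes were past an unadjusted p of 0.05 in either direction.

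Single arrays carried much of the pattern. Relative to each gene's mean over the 6 arrays, the members averaged -0.54, 0.12 and -0.26 on endosulfan 1, 2 and 3, against 0.46, -0.01 and 0.23 on control 1, 2 and 3. Endosulfan 1 held the lowest value of 28 members and control 1 the highest value of 23. Endosulfan 2 lay above control 2 and below control 1 and control 3 in this mean. Compared with control 2 alone, 40 members were lower on endosulfan 1, 34 on endosulfan 3 and 18 on endosulfan 2, where 40.4%, 45.5% and 52.6% of all genes were lower on these arrays in the same order. Thus endosulfan 2 was above control 2 in 26 of 44 members.

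**Figure D1:**
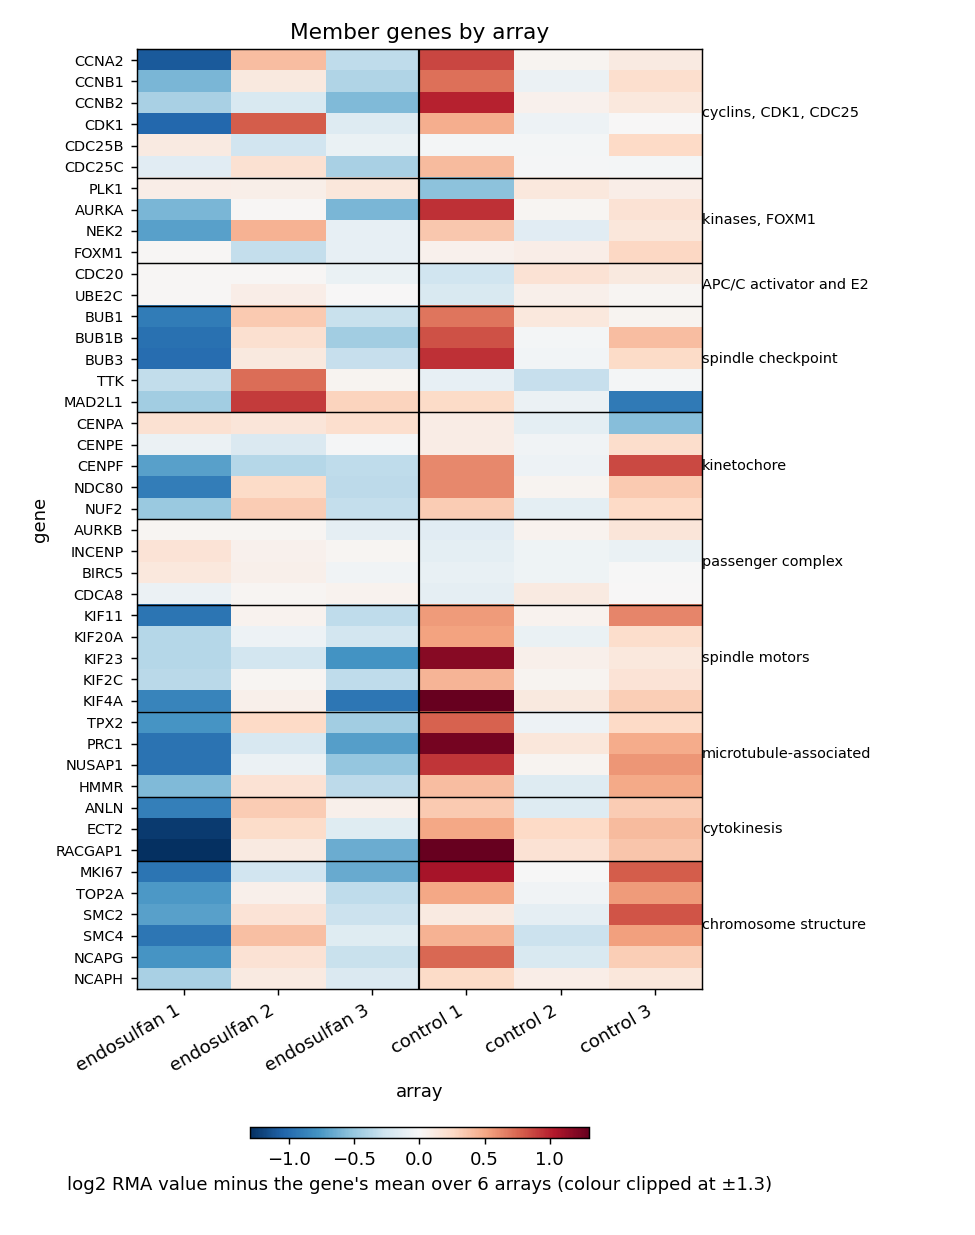
Heat map of the 44 member genes (rows, by role) on the 6 arrays (columns); colour is the log2 value minus the gene's mean over 6 arrays. Endosulfan 1 is the lowest array in 28 genes and control 1 the highest in 23, while the rows of the passenger complex, CDC20 and UBE2C show little colour.

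Control measures of the arrays also differed in part by group. The bacterial poly-A transcripts spiked into the RNA before labelling were at 7.81, 7.73 and 8.80 on endosulfan arrays and at 6.13, 7.73 and 5.84 on control arrays, so control 2 sat with the endosulfan arrays. The exact two-sided permutation p was 0.2, and 3 arrays against 3 cannot go below 0.1. For GAPDH, the 3' probe sets exceeded the 5' ones, a gap that widens as RNA degrades, by 0.84 ± 0.04 in endosulfan arrays and 0.75 ± 0.06 in control arrays (SD, n = 3 each, exact permutation p = 0.1). The same gap for ACTB was larger in both groups, at 3.67 ± 0.10 in endosulfan and 3.59 ± 0.07 in control arrays (SD, n = 3 each, exact permutation p = 0.3). Their part in the result was not tested beyond the fit with the spike-in covariate. Of the 15 sympathetic neuroblast markers listed for the identity of the line 13 were measured, and 12 of them were above 7 on every array while INSM1 averaged 3.10 on endosulfan and 3.03 on control arrays. HAND2 was at 13.31, 13.07 and 13.16 on endosulfan arrays and at 13.20, 13.19 and 13.19 on control arrays, and DBH, the noradrenaline-forming enzyme, at 12.30, 12.02 and 12.18 against 11.79, 12.19 and 12.09. The LIM factor ISL1 was at 8.46, 8.92 and 8.66 on endosulfan and at 10.49, 9.68 and 9.88 on control arrays. ISL1, ELAVL4, STMN2 and GATA3 had log2 fold changes of -1.33, -1.09, -1.05 and -0.35, each with separate groups and none past the adjusted threshold of limma (adjusted p from 0.196 to 0.220). These were 4 of the 13 measured markers (30.8%), where 10.2% of all genes had separate groups in that direction. The 13 markers had a median log2 fold change of -0.013, with 7 below 0 and 6 above, so the fall was not shared by the list. The mean level of the 13 markers ran from 10.16 to 10.29 on endosulfan and from 10.46 to 10.61 on control arrays. Of the mesenchymal neuroblastoma markers 10 of 10 were measured, with mean levels of 5.60 to 5.75 on endosulfan and 5.64 to 5.71 on control arrays. Within this list VIM averaged 10.58 on endosulfan and 10.47 on control arrays, and THY1 8.57 and 8.40. At an unadjusted p below 0.05 with limma, 1 of the 10 was lower (COL1A2) and 1 higher (COL1A1). In the Schwann and glial, epithelial, haematopoietic and endothelial lists 21 of the 24 markers listed were measured and 0 were past an unadjusted p of 0.05 with limma. At that p 10.5% of all genes were lower and 6.64% higher.

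**Figure D2:**
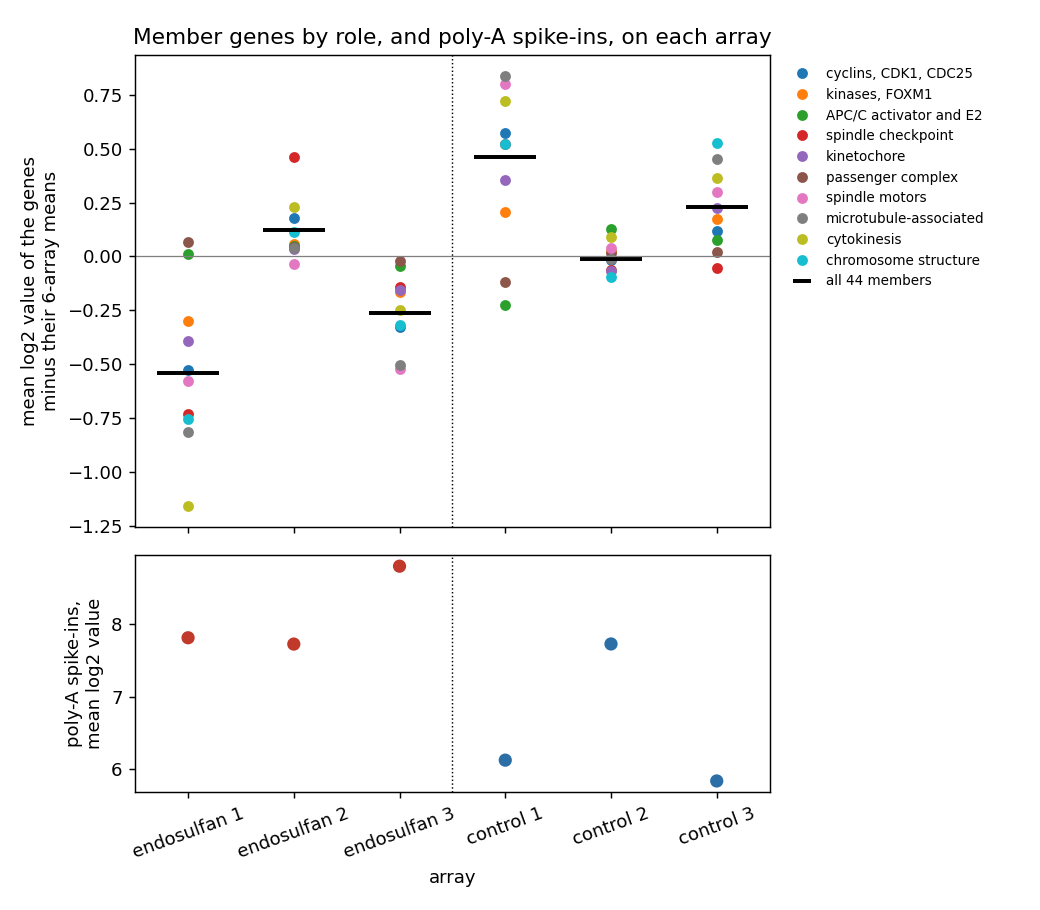
Upper panel: mean log2 value of the genes of each role minus their 6-array means, on each array (points), with the mean of all 44 members (black bars). Lower panel: mean log2 value of the poly-A spike-ins; control 2, at 7.73, is level with endosulfan 2, at 7.73, and both lie above the other control arrays.

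The promoters of the members share sequence features that their choice by name did not use. Late cell cycle genes are known for the cell cycle homology region, a MuvB-binding element near the start with the core TTTGAA or TTTAAA, and for CCAAT boxes bound by NF-Y. RefSeq promoter windows of build GRCh38.p14, from 250 bases before to 50 bases after a start, were available for 37 of the 45 listed genes, PTTG1 included. TTTGAA was present on either strand in a window of 26 of these 37 listed genes (70.3%), against 15.9% of 14425 tested genes with a window. TTTAAA, which reads the same on both strands, was in 14 (37.8%, against 12.6%), and CCAAT in 28 (75.7%, against 42.4%). At least 1 of the first 2 motifs was in 33 of them (89.2%, against 24.5%). Over all 35116 windows the shares were 15.2%, 12.2% and 34.6%. A match describes these letters and is not a binding site.

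Fold changes were set beside these motifs for the 36 measured members with a window, as a description with no test. The 26 with TTTGAA were at a median of -0.56 and the 10 without at -0.38, with 11 and 2 past an unadjusted p of 0.05. For TTTAAA the order was the other way, at -0.44 in 13 with it and -0.54 in 23 without, with 6 and 7 past that p. The 32 measured members with TTTGAA or TTTAAA stood at a median log2 fold change of -0.48, and the 4 with neither core at -0.40, with 13 and 0 past that p. Over all genes, 10.5% were lower and 6.64% higher at the same p. Members with both a core and CCAAT, 22 in number, were at -0.53, and the other 14 at -0.46. The 120 bases before the start are shown for 4 members with large negative fold changes and for 4 members near or above 0, to set such promoters side by side. Capitals mark these motifs. CCAAT on the opposite strand reads ATTGG. In MKI67 and CDCA8 a core runs into a CCAAT box of the opposite strand, so the capitals of both join, and each line gives the position and strand before the sequence. The first 4 promoters belong to MKI67, PRC1, KIF4A and CCNB2, at log2 fold changes of -1.23, -1.25, -1.16 and -0.79.
MKI67 (chr10:128126424-128126543, minus strand): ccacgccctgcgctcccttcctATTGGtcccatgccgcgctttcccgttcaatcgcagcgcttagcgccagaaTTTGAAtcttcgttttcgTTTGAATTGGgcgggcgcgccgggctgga
PRC1 (chr15:90994536-90994655, minus strand): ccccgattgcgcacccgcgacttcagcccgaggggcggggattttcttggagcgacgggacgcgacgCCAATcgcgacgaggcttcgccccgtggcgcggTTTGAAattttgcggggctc
KIF4A (chrX:70289984-70290103, plus strand): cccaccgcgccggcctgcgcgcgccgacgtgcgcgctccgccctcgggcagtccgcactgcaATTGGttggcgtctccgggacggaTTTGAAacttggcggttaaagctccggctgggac
CCNB2 (chr15:59105026-59105145, plus strand): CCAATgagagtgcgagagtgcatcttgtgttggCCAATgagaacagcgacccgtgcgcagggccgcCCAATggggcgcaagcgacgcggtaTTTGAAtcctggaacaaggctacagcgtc
The promoters of PLK1, CDC20, CDCA8 and CENPA, at log2 fold changes of 0.20, -0.04, -0.004 and 0.38, carry the same core.
PLK1 (chr16:23678769-23678888, plus strand): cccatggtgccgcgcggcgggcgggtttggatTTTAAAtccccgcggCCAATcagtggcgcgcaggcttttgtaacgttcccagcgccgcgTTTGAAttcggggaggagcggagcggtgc
CDC20 (chr1:43358861-43358980, plus strand): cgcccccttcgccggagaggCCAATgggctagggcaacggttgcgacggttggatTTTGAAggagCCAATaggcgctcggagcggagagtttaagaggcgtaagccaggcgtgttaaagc
CDCA8 (chr1:37692396-37692515, plus strand): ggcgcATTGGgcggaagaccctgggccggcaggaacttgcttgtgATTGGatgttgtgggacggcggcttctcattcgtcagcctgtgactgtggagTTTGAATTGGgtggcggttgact
CENPA (chr2:26785936-26786055, plus strand): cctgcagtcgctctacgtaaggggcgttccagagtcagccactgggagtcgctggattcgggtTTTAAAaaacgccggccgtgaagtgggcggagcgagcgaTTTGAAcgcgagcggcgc
All 8 stretches hold TTTGAA once, except that of MKI67, which holds it 2 times.

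The cyclins, CDK1 and its activators formed the first role group, and all 6 had negative log2 fold changes, from -0.79 to -0.14. CCNB2, a B-type cyclin that activates CDK1, was at 7.86, 8.09 and 7.71 on endosulfan arrays and at 9.29, 8.34 and 8.42 on control arrays. Its groups did not overlap, control 1 stood highest, and the log2 fold change was -0.79 ± 0.25 (SE, limma adjusted p = 0.22). CCNB1, the main mitotic cyclin, was at 8.58, 9.30 and 8.78 on endosulfan and at 9.88, 9.09 and 9.39 on control arrays. Here endosulfan 2 lay above control 2, and the log2 fold change was -0.57 ± 0.25 (SE, limma adjusted p = 0.292). CDK1, the kinase that drives mitotic entry, was at 7.14, 8.94 and 7.99 on endosulfan arrays and at 8.63, 8.09 and 8.16 on control arrays, so endosulfan arrays held both its highest and its lowest value. The log2 fold change of CDK1 was -0.27 ± 0.41 (SE) and turned to 0.17 without endosulfan 1. CDC25B, a phosphatase that activates CDK1 at the G2/M boundary, was at 9.45, 9.09 and 9.24 on endosulfan and at 9.31, 9.31 and 9.60 on control arrays, and the groups overlapped. CCNA2, cyclin A, and the phosphatase CDC25C were at log2 fold changes of -0.68 ± 0.38 and -0.25 ± 0.19 (SE), with overlapping groups. In this group 1 of 6 members, CCNB2, was lower at an unadjusted p below 0.05, where 10.5% of all genes were.

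Among the mitotic kinases and FOXM1, AURKA and PLK1 differed in sign. AURKA, the Aurora kinase of centrosomes and spindle poles, was at 7.14, 7.75 and 7.14 on endosulfan and at 8.68, 7.76 and 7.92 on control arrays. The groups did not overlap, though endosulfan 2 and control 2 were nearly level, and the log2 fold change was -0.78 ± 0.27 (SE, limma adjusted p = 0.234). PLK1, the Polo kinase of mitotic entry and centrosome maturation, was at 7.56, 7.54 and 7.62 on endosulfan and at 6.94, 7.60 and 7.56 on control arrays. All arrays but control 1 lay within a narrow range, and the log2 fold change of 0.20 ± 0.18 (SE) became -0.01 without control 1. FOXM1, the forkhead factor that drives transcription of many G2/M genes, was at 8.05, 7.73 and 7.93 on endosulfan and at 8.09, 8.12 and 8.30 on control arrays. Its groups did not overlap on this brightest probe set, and the log2 fold change was -0.27 ± 0.13 (SE, limma adjusted p = 0.319). The dimmer FOXM1 probe sets were at -0.13 and 0.04, with overlapping groups. NEK2, the kinase that loosens the link between centrosomes, was at -0.24 ± 0.28 (SE) with overlapping groups.

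The anaphase-promoting complex group was flat. CDC20, the activator that directs the complex to cyclin B and securin, was at 10.18, 10.18 and 10.08 on endosulfan and at 9.91, 10.36 and 10.29 on control arrays. UBE2C, the E2 enzyme that starts ubiquitin chains for the complex, was at 12.00, 12.07 and 11.99 on endosulfan and at 11.79, 12.05 and 12.01 on control arrays. In both genes control 1 was the lowest array, and the log2 fold changes were -0.04 ± 0.14 and 0.07 ± 0.11 (SE). The probe set shared by PTTG1 and PTTG3P was at 9.90, 10.68 and 10.20 on endosulfan and at 10.97, 10.46 and 10.49 on control arrays, with overlapping groups.

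The spindle checkpoint genes did not share a sign. BUB1B, the BubR1 protein of the checkpoint complex that holds CDC20 inactive, was at 5.86, 7.05 and 6.39 on endosulfan and at 7.66, 6.81 and 7.24 on control arrays. BUB3, its partner at kinetochores, was at 7.78, 8.89 and 8.47 on endosulfan and at 9.72, 8.73 and 9.02 on control arrays. In both, endosulfan 2 lay above control 2, and the log2 fold changes were -0.80 ± 0.32 and -0.78 ± 0.33 (SE, limma adjusted p of 0.266 and 0.287). MAD2L1, the Mad2 protein of the same complex, was at 9.44, 10.80 and 10.18 on endosulfan arrays and at 10.14, 9.82 and 8.97 on control arrays. Its highest value was that of endosulfan 2 and its lowest that of control 3, and its log2 fold change of 0.50 ± 0.39 (SE, limma adjusted p = 0.519) was the highest of all 44 members. The kinases BUB1 and TTK (MPS1), which start checkpoint signalling, were at -0.57 ± 0.31 and 0.29 ± 0.25 (SE), with overlapping groups.

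At the kinetochore CENPF and CENPA had opposite signs, with groups that did not overlap in either on the brightest probe set. CENPF, a large coiled-coil protein of the outer kinetochore that peaks in G2 and M, was at 5.79, 6.13 and 6.16 on endosulfan and at 7.12, 6.43 and 7.35 on control arrays. Its log2 fold change was -0.94 ± 0.24 (SE, limma adjusted p = 0.196), which is a level 1.92-fold higher in control cells on this probe set. A dimmer CENPF probe set was at -0.26 with overlapping groups. CENPA, the histone H3 variant that marks centromeres, was at 10.11, 10.06 and 10.13 on endosulfan and at 10.00, 9.78 and 9.35 on control arrays. The endosulfan arrays were nearly level and the control arrays spread downward, with a log2 fold change of 0.38 ± 0.17 (SE, limma adjusted p = 0.296). NDC80, the core of the complex that binds microtubules, was at 4.60, 5.74 and 5.15 on endosulfan and at 6.12, 5.53 and 5.83 on control arrays, and endosulfan 2 lay above control 2. Its partner NUF2 and the kinetochore motor CENPE were at log2 fold changes of -0.31 ± 0.23 and -0.19 ± 0.12 (SE), with overlapping groups.

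The chromosomal passenger complex, which corrects faulty attachments and steers cytokinesis, had log2 fold changes from -0.04 to 0.17. INCENP, its scaffold, was at 5.89, 5.76 and 5.73 on endosulfan and at 5.58, 5.65 and 5.62 on control arrays. BIRC5 (survivin) was at 10.97, 10.91 and 10.79 on endosulfan and at 10.74, 10.78 and 10.84 on control arrays. The groups did not overlap for INCENP and overlapped for BIRC5, with log2 fold changes of 0.17 ± 0.10 and 0.10 ± 0.11 (SE, limma adjusted p of 0.412 and 0.615). The kinase AURKB and CDCA8 (borealin) were at -0.04 ± 0.12 and -0.004 ± 0.11 (SE), and CDCA8 turned to 0.011 when arrays were centred on their medians. In this group 0 of 4 members were past an unadjusted p of 0.05 with limma, where 10.5% of all genes were lower and 6.64% higher.

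**Figure D3:**
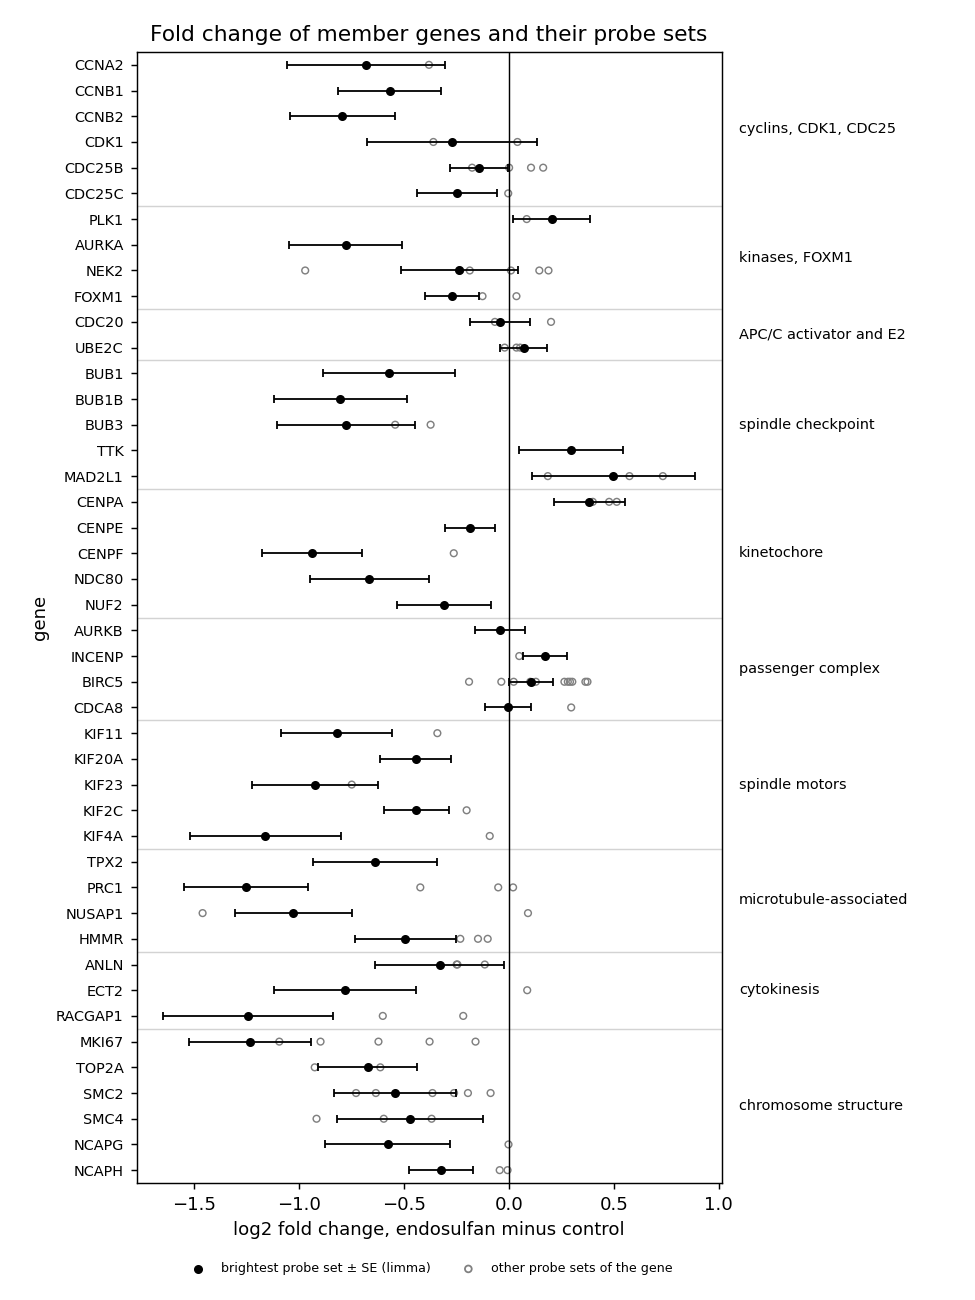
Log2 fold change, endosulfan minus control, of each member's brightest probe set with its standard error (black) and of its other probe sets (open circles), by role. The brightest probe sets of all 5 spindle motors and all 4 microtubule-associated proteins lie below 0, though 1 other probe set each of NUSAP1 and PRC1 lies above it, while CDC20, UBE2C and the passenger complex lie around it.

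All 5 spindle motors were lower at an unadjusted p below 0.05, where 10.5% of all genes were. KIF4A, a chromosome-arm kinesin that also caps the central spindle with PRC1, was at 6.02, 6.95 and 5.94 on endosulfan and at 8.18, 7.01 and 7.21 on control arrays. Its groups did not overlap, although endosulfan 2 and control 2 differed little, and its log2 fold change of -1.16 ± 0.36 (SE, limma adjusted p = 0.219) corresponds to a level 2.24-fold higher in control cells. A probe set shared with its retrogene copy KIF4B was at 6.12, 7.27 and 6.36 on endosulfan and at 8.38, 7.36 and 7.38 on control arrays. KIF11 (Eg5), the motor that pushes the spindle poles apart, was at 5.55, 6.55 and 6.17 on endosulfan and at 7.05, 6.55 and 7.13 on control arrays. KIF2C (MCAK), which takes apart faulty microtubule attachments, was at 9.07, 9.44 and 9.08 on endosulfan and at 9.86, 9.46 and 9.60 on control arrays. In both genes endosulfan 2 and control 2 stood side by side, and the log2 fold changes were -0.82 ± 0.27 and -0.44 ± 0.16 (SE, limma adjusted p of 0.22 and 0.239). KIF23 and KIF20A, the central-spindle kinesins needed for cytokinesis, were at -0.92 ± 0.30 and -0.44 ± 0.17 (SE), with separate groups in KIF23 and overlapping ones in KIF20A. KIF23 was dim, averaging 4.46 on endosulfan and 5.39 on control arrays.

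The microtubule-associated proteins held the largest negative fold change. PRC1, which bundles the antiparallel microtubules of the central spindle, was at 7.82, 8.57 and 8.07 on endosulfan and at 10.03, 8.93 and 9.26 on control arrays. Each endosulfan value lay below each control value, and the log2 fold change was -1.25 ± 0.30 (SE, limma adjusted p = 0.196), a level 2.38-fold higher in control cells. NUSAP1, which stabilises microtubules around chromosomes, was at 5.03, 5.91 and 5.49 on endosulfan and at 6.92, 6.03 and 6.57 on control arrays, with groups that did not overlap. HMMR (RHAMM), a spindle-pole protein, was at 6.61, 7.37 and 6.84 on endosulfan and at 7.59, 7.03 and 7.69 on control arrays, with overlap. TPX2, the activator of AURKA on the spindle, had a log2 fold change of -0.64 ± 0.30 (SE), and its groups overlapped through endosulfan 2.

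In cytokinesis RACGAP1, the centralspindlin partner of KIF23, was at 7.25, 8.70 and 7.94 on endosulfan and at 9.90, 8.77 and 8.95 on control arrays. ECT2, the exchange factor that RACGAP1 recruits to activate RhoA, was at 4.08, 5.57 and 5.17 on endosulfan and at 5.83, 5.59 and 5.74 on control arrays. In both the groups did not overlap on the brightest probe set, but endosulfan 2 came within 0.1 of control 2. The log2 fold changes were -1.24 ± 0.41 and -0.78 ± 0.34 (SE, limma adjusted p of 0.22 and 0.292). A dimmer ECT2 probe set had the other sign, at 0.09 with overlapping groups. ANLN, the anillin scaffold of the contractile ring, was at 5.08, 6.29 and 6.02 on endosulfan and at 6.30, 5.79 and 6.29 on control arrays. Its log2 fold change of -0.33 ± 0.31 (SE) turned to 0.03 without endosulfan 1.

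The chromosome structure genes were all below 0. MKI67, the Ki-67 protein that coats mitotic chromosomes and marks cycling cells, was at 6.17, 6.87 and 6.46 on endosulfan and at 8.18, 7.11 and 7.90 on control arrays. TOP2A, the topoisomerase that untangles sister chromatids, was at 6.88, 7.68 and 7.29 on endosulfan and at 8.12, 7.58 and 8.17 on control arrays. The groups were separate in MKI67 and overlapped in TOP2A, where endosulfan 2 lay above control 2, and the log2 fold changes were -1.23 ± 0.29 and -0.67 ± 0.24 (SE, limma adjusted p of 0.196 and 0.238). Condensin, which compacts chromosomes, was represented by its ATPases SMC2 and SMC4 and by NCAPG and NCAPH. NCAPH was at 7.70, 8.24 and 7.93 on endosulfan and at 8.36, 8.21 and 8.27 on control arrays, and its log2 fold change was -0.32 ± 0.15 (SE). SMC2, SMC4 and NCAPG were at -0.54, -0.47 and -0.58, and on the brightest probe sets the groups of all 4 condensin genes overlapped. A dimmer SMC4 probe set was at -0.92 with separate groups (limma adjusted p = 0.215), and the remaining SMC4 probe sets were at -0.60 and -0.37 with overlap.

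**Figure D4:**
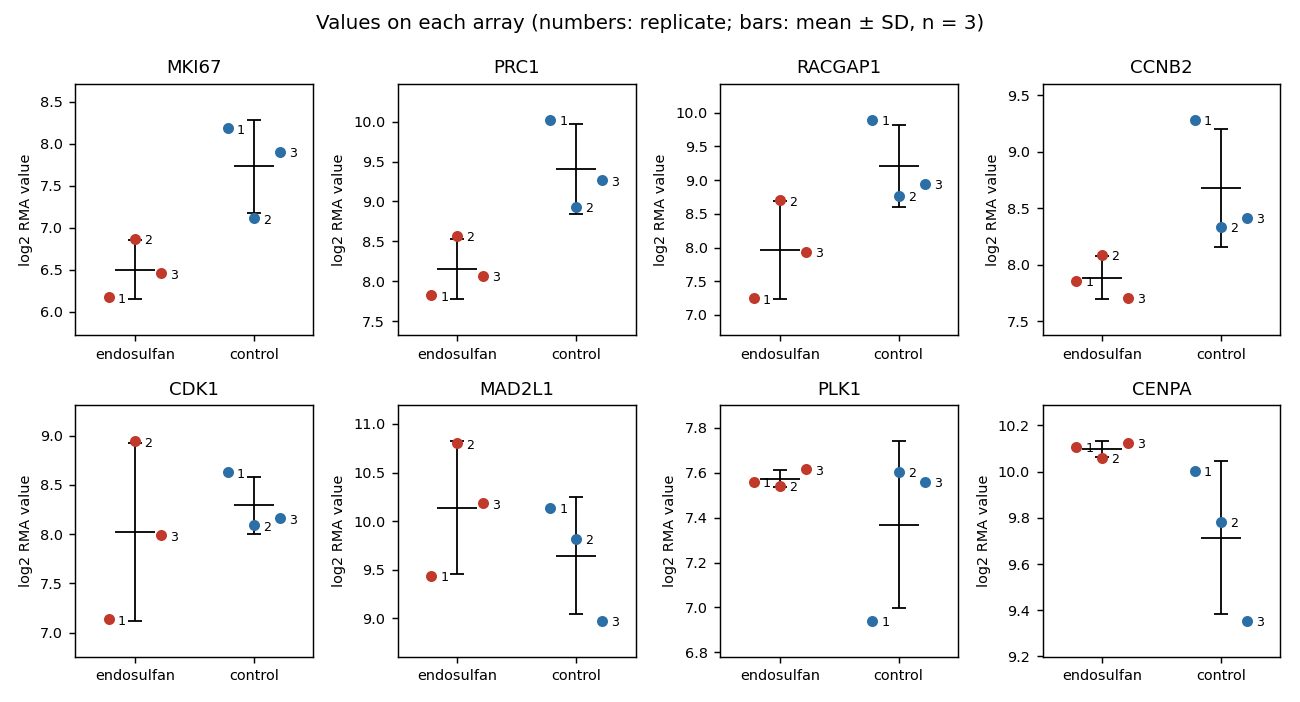
Log2 values on each array for 8 members (points, numbered by replicate) with the mean and SD of 3 arrays; each panel has its own vertical axis, which does not start at 0. The groups are separate in MKI67, PRC1, RACGAP1, CCNB2 and, in the other direction, CENPA, and they overlap in CDK1, MAD2L1 and PLK1.

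Probe sets of a gene differed in the size of their fold change. Of the 44 members 12 had 1 probe set and 32 had several, up to 12 for BIRC5. Among those 32, the probe sets were all below 0 in 17 genes, all above 0 in 4 (CENPA, INCENP, MAD2L1 and PLK1) and of mixed sign in 11. Over the 126 member probe sets 86 were below 0 (39.9% of all probe sets were), 29 were lower at an unadjusted p below 0.05 (9.21% of all probe sets were) and 6 were higher (6.3% of all), and 0 passed limma with Benjamini-Hochberg adjustment (0.00811% of all). The 3 arrays of each group did not overlap in 23 lower and 8 higher probe sets, where 9.24% and 11.5% of all probe sets did so. Dim probe sets lay nearer 0: the 85 above the median level of all probe sets had a median fold change of -0.27 (log2), and the 41 at or below it one of -0.09.

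The widest range was that of NUSAP1, whose 3 probe sets were at -1.46, -1.03 and 0.09, the last at mean levels of 4.32 on endosulfan and 4.23 on control arrays. PRC1 ran from -1.25 on its brightest probe set through -0.42 and -0.05 to 0.02 on its dimmest. NEK2 had 7 probe sets, and the lowest, at -0.97 ± 0.28 (SE), was not its brightest, which was at -0.24. That lowest probe set was dim, averaging 4.02 on endosulfan and 4.99 on control arrays. MKI67 was below 0 on all 6 probe sets, from -1.23 to -0.16, and its groups were separate on 5 of them. KIF4A was at -1.16 and -0.09, and RACGAP1 at -1.24, -0.60 and -0.22. CENPA was above 0 with separate groups on all 4 probe sets, from 0.38 to 0.51. BIRC5 was above 0 on 10 of 12 probe sets, with separate groups on 3 higher and 1 lower.

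Gene span went along with the fold change among members. RefSeq spans, from the first to the last annotated base of a gene, ran from 4.22 kb for CDC20 to 131 kb for KIF4A. The 15 shortest members (4.22 to 19.2 kb) were at a median log2 fold change of -0.04, and 2 of them were lower at an unadjusted p below 0.05. The middle 14 were at -0.54 and the 15 longest (40.5 to 131 kb) at -0.67, with 7 lower in each. Among all genes in the same 3 span ranges, 4.93%, 9.37% and 16.7% were lower at that unadjusted p. Spearman's rho between log2 fold change and span was -0.48 across the 44 members and -0.28 across 18112 genes, as descriptions across genes that share the same 6 arrays. All genes within the same 3 span ranges had medians of 0.09, 0.05 and -0.02, so the steps among all genes were smaller than those among members.

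**Figure D5:**
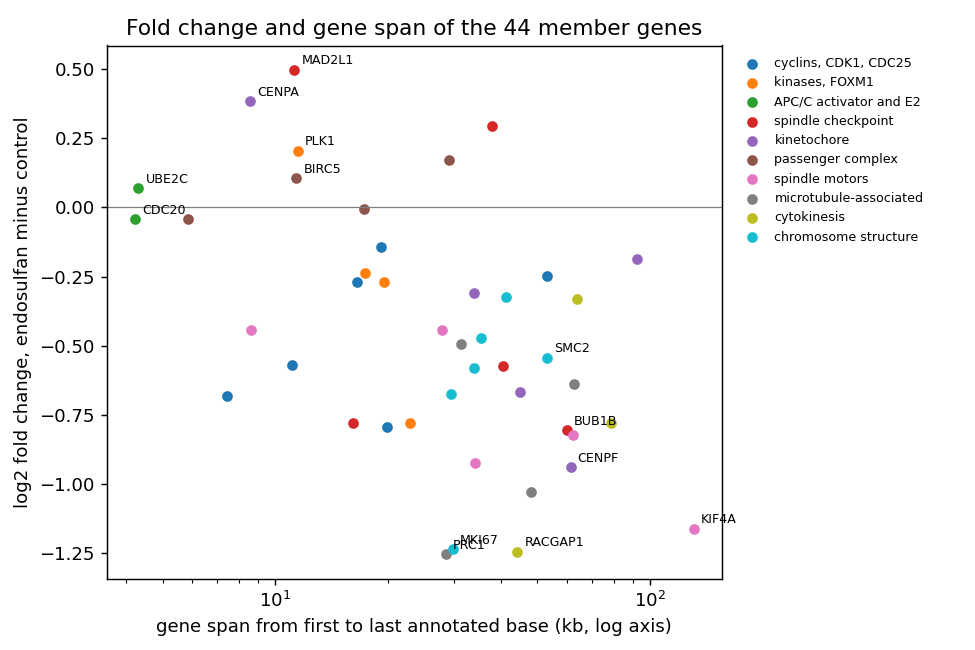
Log2 fold change, endosulfan minus control, against gene span in kb (log axis) for the 44 members, coloured by role. CDC20 and UBE2C, the 2 shortest genes, lie near 0, and KIF4A, the longest, is at -1.16.

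Other genes of the G2/M programme, listed from knowledge of the cell cycle with earlier results of these data known, showed smaller differences. Of 67 listed, 65 were measured, with a median log2 fold change of -0.21, 41 below 0 and 24 above. With limma 0 passed the adjusted threshold, where 0.00552% of all genes did. At an unadjusted p below 0.05, 18 (27.7%) were lower and 2 higher, where 10.5% of all genes were lower and 6.64% higher. WEE1, the kinase that holds CDK1 inactive, was at 7.76, 8.71 and 7.94 on endosulfan and at 9.82, 8.89 and 9.18 on control arrays. NCAPD3, a condensin II subunit, was at 7.33, 8.41 and 7.76 on endosulfan and at 9.35, 8.65 and 8.76 on control arrays. The groups of both were separate, at log2 fold changes of -1.16 and -1.09, and KNTC1 (the kinetochore protein ROD) and KIF20B were at -0.80 and -0.59. KNTC1 and KIF20B were dim, averaging 3.72 and 2.77 on endosulfan and 4.51 and 3.37 on control arrays. These levels lie below the median of all probe sets, 4.92, and no call above background was made. On the higher side SPC24 and SPC25, the kinetochore-anchoring subunits of the NDC80 complex, were at 0.43 and 0.44 with separate groups, while NDC80 and NUF2 were below 0. CKS2, a CDK1-binding subunit, and the centromere protein OIP5 were both at 0.53, with overlapping groups. Genes of G1/S and DNA replication had a median of -0.09 over 37 measured. At an unadjusted p below 0.05, 7 of these (18.9%) were lower and 1 was higher, against 10.5% and 6.64% of all genes.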

How the data were processed

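The 6 arrays' log2 values were deposited by the authors in 1 table. Per the submitters' processing notes they were made in Affymetrix Expression Console by RMA, and no version or option is stated there. Its quantile step removes shifts shared by most transcripts. The table had 49395 rows, of which 102 control probe sets were set aside. The platform annotation named 1 gene for 44988 of the others, several for 1832 and none for 2473. Each of 18132 genes was represented by its one-gene probe set of highest mean. Scanner signals were not used here, so no call above background was made, and the number of arrays limits the precision.

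Endosulfan was compared with control by limma 3.58.1 (lmFit and eBayes, R 4.3.3), two-sided, with Benjamini-Hochberg adjustment over all genes or all probe sets. Array measures were compared by exact permutation tests (scipy 1.17.1). On simulated data for this comparison with 18132 genes, 16%, 58%, 98% and 98% of genes changed by 0.585, 1, 2 and 3 (log2) were recovered, with 5 false calls among 140. The simulated noise was independent between genes and held no shifts shared by array. In the deposited values the members moved together by array, so these rates may not apply to them. Members and lists were chosen with earlier results of these data known. Values on every array are given for the 2 members of each role with the smallest p, the member with the highest fold change, and MKI67, TOP2A, FOXM1, CCNB1, CDK1, PLK1 and AURKA. The 6 members with the widest probe set range, and among other G2/M genes the 4 with the smallest p in each direction, are also named. CENPA and BIRC5 are described by probe set, and the promoters shown, the gene spans and some single values were chosen, after values were seen. Alternatives were a replicate block, other normalizations, a level filter, other variance models, array weights, a spike-in covariate, probe set means and left-out arrays. Promoter sequences and spans are from RefSeq, GRCh38.p14.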

Additional observations from a re-analysis of the deposited data

Results flagged for a closer look

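Control probe sets outside the comparison of transcripts were higher on average on endosulfan arrays, though the poly-A groups overlapped through control 2. The poly-A spike-ins differed by 1.55 on the log2 scale, at 8.11 ± 0.60 in endosulfan and 6.57 ± 1.02 in control arrays (SD, n = 3 each), with an exact two-sided permutation p of 0.2. A gap of 0.644 separated the hybridisation control transcripts, at 10.70 ± 0.19 in endosulfan and 10.05 ± 0.29 in control arrays (SD, n = 3 each). Its exact permutation p of 0.1 is the smallest that 3 against 3 arrays allow. Their part in the lower mitotic values was not tested beyond the fit with the poly-A level as a covariate.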

How the results depend on the processing

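The count of 0 members past the adjusted threshold held in all but 1 of the 16 alternatives at gene level. Weighting arrays by their agreement gave endosulfan 3 and control 3 weights of 5.46 and 4.22 (the others 0.27 to 0.66), in an estimate that stopped short of its convergence tolerance, and 31 member genes and 46 member probe sets passed, where 32.6% of all genes and 14.4% of all probe sets did. The 16 members lower at an unadjusted p below 0.05 became 10 with the replicate block, 4 without moderation, 33 with array weights, 0 with the spike-in covariate, 7 with endosulfan 1 and control 1 both left out and 6 to 28 with 1 array left out. The 0 higher became 1 with a further quantile normalization, without moderation and with probe set means, 2 with array weights and with endosulfan 1 and control 1 left out, and 0 to 2 with 1 array left out. Of the other G2/M genes, 18 lower became 8, 5, 35, 1 and 7 in the first 5 settings and 7 to 27 with 1 array left out. Their 2 higher became 4 with quantile normalization, 11 with weights, 0 with the covariate, 7 with endosulfan 1 and control 1 left out, 5 with probe set means and 0 to 5 with 1 array left out. The members' median was -0.16 with the covariate, -0.20 without endosulfan 1 and control 1, and between -0.75 and -0.33 when any 1 array was dropped; that of the other G2/M genes was -0.044, of the kinetochore group -0.084, of spindle motors -0.44 and of microtubule-associated proteins -0.39 with it. With the covariate the medians were also -0.11 for cyclins, -0.11 for kinases, -0.37 for the checkpoint, -0.17 for chromosome structure and -0.063 for CDC20 with UBE2C, and -0.75 for cytokinesis. Without endosulfan 1 and control 1 they were -0.055 for the checkpoint, -0.15 for cyclins, -0.19 for the kinetochore, -0.48 for motors, -0.42 for microtubule-associated proteins, -0.29 for cytokinesis, -0.27 for chromosome structure and -0.098 for CDC20 with UBE2C. With 1 array left out the median ran from -1.09 to -0.35 for cytokinesis, -0.89 to -0.26 for the checkpoint, -0.75 to -0.27 for cyclins, -0.35 to -0.15 for kinases, -0.80 to -0.33 for chromosome structure and -0.55 to -0.20 for the kinetochore, and the passenger complex median was 0.13 with probe set means. The cause of these shifts was not tested.

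Of 44 members 28 stayed below 0 and 4 above 0 in every setting, and 12 took both signs: CDK1, CDC25C, PLK1, NEK2, CDC20, UBE2C, NUF2, AURKB, BIRC5, CDCA8, ANLN and SMC4. A further quantile normalization turned the sign of no member, and median centring that of 1, CDCA8 (0.011, against -0.004). Without endosulfan 1 and control 1 the log2 fold change was 0.34 for CDK1, 0.12 for ANLN, 0.17 for NEK2, -0.0033 for PLK1 and -0.0002 for UBE2C. With 1 array left out the range was -0.73 to 0.17 for CDK1, -0.58 to 0.030 for ANLN, -0.52 to 0.056 for NEK2, -0.18 to 0.043 for CDC20, -0.0097 to 0.32 for PLK1 and -0.0099 to 0.12 for UBE2C. CDC20 was at 0.031 with probe set means, NEK2 at 0.028 with the covariate, and UBE2C and BIRC5 at -0.0099 and -0.0074 with array weights. Correlations of same-numbered arrays' deviations from their group means were -0.51, -0.40 and 0.05. With 3 arrays a group and deviations tied to group means, these values cannot settle whether the replicate numbers pair the samples. The labels do not say so.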
